A study of Mus musculus with 13 samples.

Results

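The 9 genes described here encode the contractile apparatus of smooth muscle and its relatives: Acta2, Tagln, Tagln2, Myh11, Myl9, Cnn1, Des, Tpm1 and Tpm2. They are 9 of the 22656 genes in the deposited table and were found by symbol. Acta2 and Tagln2 were selected on their normalised counts in this same comparison of host genotypes, so their levels are given as a description with no test. The other 7 were listed by function. RNA was measured in 13 libraries of B16F10 cells, a mouse melanoma line, that had grown as lung metastases in APOE2 knock-in hosts (8 libraries) or APOE3 knock-in hosts (5 libraries). All mice received 100000 cells of the derivative B16F10-TR-shApoe, named for a hairpin RNA against Apoe, by the tail vein, so both groups carry it. Lungs were taken on day 15 and digested with collagenase, and cells low for the dead-cell dye TO-PRO-3, negative for the leukocyte antigen CD45 and positive for GFP were sorted. The labels give no strain, age or sex of the mice and no batch, and no tumour cells lacking the hairpin enter these comparisons.

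Smooth muscle contracts when myosin filaments pull on actin filaments after calcium-activated phosphorylation of the myosin regulatory light chain. Acta2 encodes the smooth muscle alpha-actin, Myh11 the smooth muscle myosin heavy chain and Myl9 a regulatory light chain. Tropomyosins, calponin and transgelin lie along actin, and desmin forms intermediate filaments. In lung these genes mark vascular and airway smooth muscle, and Acta2 also marks activated fibroblasts. Many of them are controlled by serum response factor (SRF), which binds a short element called the CArG box, together with cofactors of the myocardin family. Other members have wide use outside muscle: Tagln2 is a transgelin of many non-muscle cells, and Tpm1 is expressed in many cell types as a range of isoforms.

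Recovered reads ranged from 7080308 to 13039989 per library. Values below are normalised counts, which are reads divided by a size factor of the library. A count of 0 reads allows up to 3 reads, which is 2.04 to 3.47 normalised counts depending on the library, for counting error only. Melanocyte genes such as Dct and Pmel were abundant in every library. Summed over 7 markers, they gave 295578 to 454459 normalised counts in APOE2 (median 337144) and 213130 to 327639 in APOE3 (median 246878). Genes were tested where their average over the 13 libraries reached 10 normalised counts, and 5 of the 9 did so: Acta2, Tagln2, Myl9, Des and Tpm1. The remaining 4 (Tagln, Myh11, Cnn1 and Tpm2) were below it. Among the 7 genes listed by function, 3 were therefore tested, and limma called 0 at a threshold of 0.05 on the Benjamini-Hochberg adjusted p-value. At an unadjusted p under 0.05 the number was also 0 of 3 by limma, edgeR and DESeq2. Over all 12403 genes tested, limma called 51 higher in APOE2 (0.411%) and 47 lower (0.379%), together 0.79%, while 14.2% were under 0.05 before adjustment. With equal library totals the split was 38 higher and 54 lower. On the deposited values limma called 0 of the 7 melanocyte markers, and 3 of them had a log2 fold change below 0 (median 0.069).

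Acta2 (ENSMUSG00000035783, chr19:34241090-34255590, minus strand) was low in APOE2 hosts, with a lowest value of 0.863 normalised counts, a median of 10.0 and a highest value of 30.5. In APOE3 hosts the 5 libraries had 56.9, 49.7, 136, 142 and 61.3 normalised counts for replicates 1 to 5. The groups did not overlap. In reads, the APOE2 libraries held 1 to 27 and the APOE3 libraries 44 to 151. The ratio of the APOE3 to the APOE2 mean was 7.33, and the log2 fold change of APOE2 against APOE3 was −3.09 on the log2(normalised count + 1) scale. Acta2 was selected for this difference, and 0.508% of all genes tested had every APOE2 library below every APOE3 library (0.984% separated in either direction). Replicates 3 and 4 were the 2 highest APOE3 libraries. Without replicate 4 the APOE3 mean was 76.1 normalised counts and the log2 fold change −2.88. In such bulk samples, fewer cells of a type and less RNA per cell cannot be told apart.

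Sequence around a RefSeq start of the genes was searched for the CArG box, the element that SRF binds. RefSeq promoter windows on GRCm38.p6, from 250 bases before to 50 after a start, were matched for 7 of the 9 genes, all but Tagln and Myh11. The element has 10 bases and reads the same on both strands. An exact CArG box occurred in 1.63% of all 32851 windows, one with at most 1 mismatch in 21.1%, and at least 2 such sites in 3.70%. The start in that table is not the first annotated base of the gene for Acta2, Myl9 and Tpm1: it lies 217, 44 and 193 bases inside the GENCODE M21 gene. Acta2 had 2 sites with 1 mismatch, 84 and 34 bases before the table's start. Both lie within an annotated exon, 133 and 183 bases inside the gene from its annotated 5′ end, so whether they are upstream of transcription depends on which start is used. They are shown with 10 bases on each side, 5′ to 3′ on the minus strand, and the capitals mark the element.
Acta2 site 1, chr19:34255438-34255467: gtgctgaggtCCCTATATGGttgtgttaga
Acta2 site 2, chr19:34255388-34255417: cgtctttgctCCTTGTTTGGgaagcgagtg

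Myl9 was the only one of the 7 matched genes with an exact CArG box, 161 bases before the table's start, and it had another site with 1 mismatch 99 bases before it. Both lie outside the annotated gene. The stretch is shown on the plus strand up to 57 bases before that start.
Myl9 upstream, chr2:156775214-156775407: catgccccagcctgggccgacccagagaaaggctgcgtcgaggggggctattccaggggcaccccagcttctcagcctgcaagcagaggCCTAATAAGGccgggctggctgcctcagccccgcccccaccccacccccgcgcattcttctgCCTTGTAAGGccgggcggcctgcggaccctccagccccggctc
Tpm1 had 2 sites with 1 mismatch, 221 and 80 bases before the table's start. The first lies outside the annotated gene and is shown on the minus strand, and the other lies within an annotated exon.
Tpm1 site 1, chr9:67049415-67049444: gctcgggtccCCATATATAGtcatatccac
The windows of Tagln2, Cnn1, Des and Tpm2 held no site with up to 1 mismatch. These matches describe letters in a window and say nothing about binding in these cells.

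**Figure D1:**
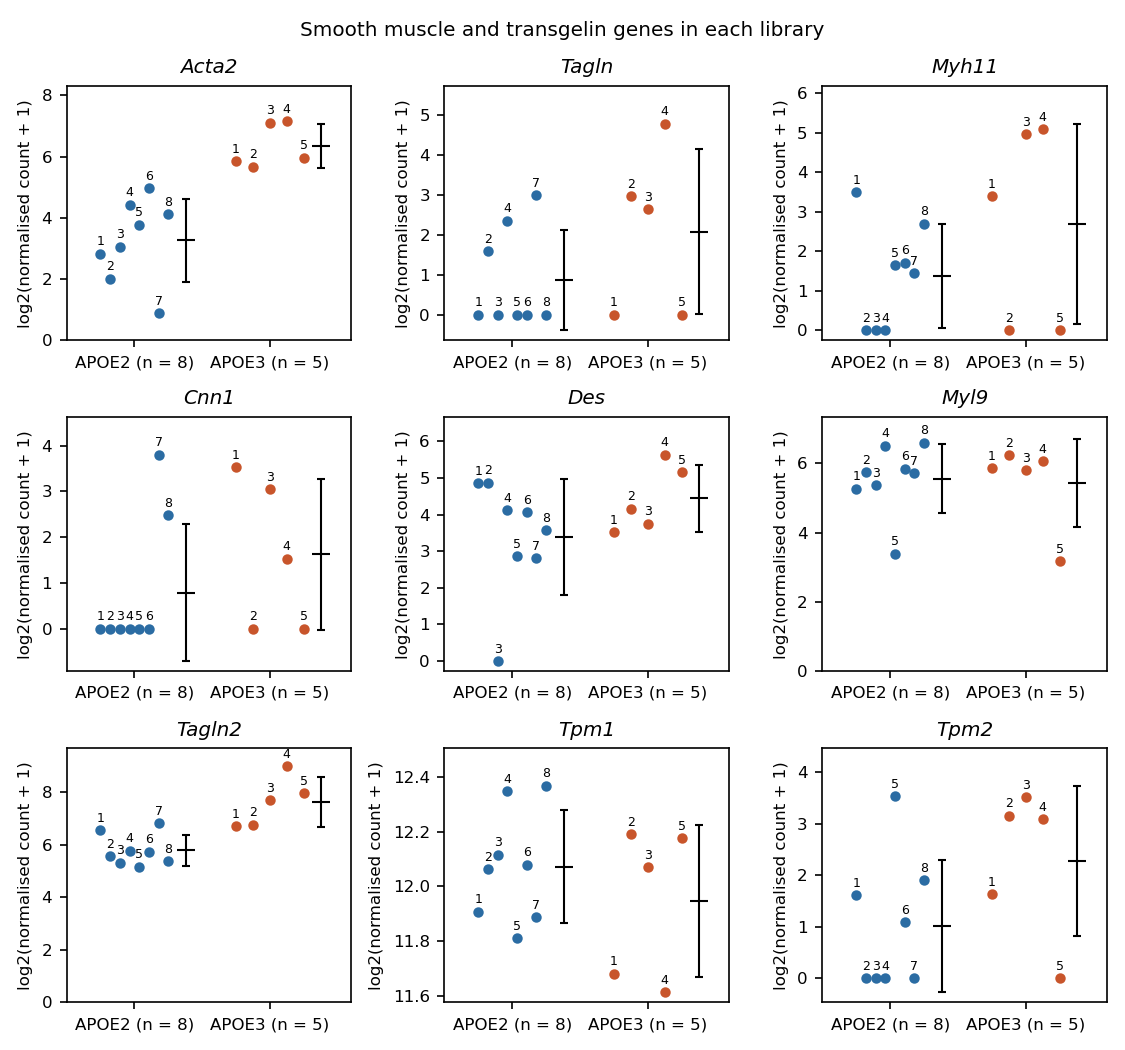
Each panel plots 1 gene as log2(normalised count + 1) in every library, with blue points for APOE2 and orange for APOE3, the replicate number above each point, and the mean with its SD beside each group. The Tpm1 axis does not start at 0. The Acta2 groups do not overlap, whereas those of the other 8 genes do.

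Myh11 (ENSMUSG00000018830, chr16:14194535-14291372), the myosin that defines mature smooth muscle, was near the detection limit. In APOE2 hosts 3 of 8 libraries had 0 reads, the median was 1.92 normalised counts and the highest value 10.2. In APOE3 hosts replicates 1 to 5 had 9.48, 0, 30.2, 32.9 and 0. Replicates 3 and 4 were above every APOE2 library and the other 3 were not. The log2 fold change was −1.32 with all libraries, −0.72 without APOE3 replicate 4, −0.75 without APOE3 replicate 3 and −1.99 without APOE3 replicate 2 or 5. In limma without a filter on low values, which called 0.0397% of 22656 genes (0.0221% higher and 0.0177% lower in APOE2), the adjusted p was 0.686 and the 95% interval ran from −3.38 to 0.75.

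Cnn1 (ENSMUSG00000001349, chr9:22099216-22109630) encodes calponin 1, which inhibits the myosin ATPase on actin. It had 0 reads in 6 of 8 APOE2 libraries and in 2 of 5 APOE3 libraries. Its highest value was 12.9 normalised counts in an APOE2 library, replicate 7, beside 10.5 in APOE3 replicate 1. The unfiltered limma fit gave a log2 fold change of −0.84 with an interval from −2.49 to 0.82 and an adjusted p of 0.759. Without APOE3 replicate 1 the value was −0.36, without APOE3 replicate 3 it was −0.48 and without APOE2 replicate 7 it was −1.27.

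Tagln (ENSMUSG00000032085, chr9:45929619-45936058), the transgelin of smooth muscle, had 0 reads in 5 of 8 APOE2 libraries, and the highest value there was 6.90 normalised counts. APOE3 replicates 1 to 5 had 0, 6.78, 5.20, 26.4 and 0. Replicate 4 alone held 68.7% of the APOE3 sum. The log2 fold change was −1.21 with all libraries (unfiltered limma adjusted p = 0.675, interval from −2.95 to 0.53) and −0.53 without APOE3 replicate 4. Tagln exons overlap those of Pcsk7 and Gm48529 on the opposite strand, and whether counting used strand is not stated, so its few reads cannot be assigned with certainty.

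Des (ENSMUSG00000026208, chr1:75360329-75368579) encodes desmin, the intermediate filament protein of muscle, which pericytes also express. APOE2 libraries ran from 0 to 28.3 normalised counts with a median of 13.4. APOE3 replicates 1 to 5 had 10.5, 16.9, 12.5, 49.0 and 34.7. The groups overlapped, with 2 APOE3 libraries above every APOE2 library. The limma log2 fold change was −1.05 ± 0.75 (SE), with an adjusted p of 0.552 and a 95% interval from −2.60 to 0.50. Of the 1173 tested genes averaging 10 to 20 normalised counts, 20.8% had a log2 fold change below −1, beside 4.18% of all genes tested. Without APOE2 replicate 3, the library with 0 Des reads, the log2 fold change was −0.57. Its exons overlap Gm15179 on the opposite strand, a gene with almost no reads.

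Myl9 (ENSMUSG00000067818, chr2:156775420-156781658) encodes the regulatory light chain whose phosphorylation starts contraction. The APOE2 libraries ran from 9.50 to 96.1 normalised counts with a median of 52.1, and APOE3 replicates 1 to 5 had 56.9, 74.6, 55.2, 65.9 and 8.10. The group means were 54.3 ± 28.1 (SD, n = 8) and 52.1 ± 25.8 (SD, n = 5). Replicate 5 was the lowest library in each group. The limma log2 fold change was 0.13 ± 0.52 (SE), with an adjusted p of 0.943 and a 95% interval from −0.95 to 1.20. Its sign depended on single libraries: it was −0.44 without APOE3 replicate 5, −0.011 without APOE2 replicate 4 and −0.024 without APOE2 replicate 8, and 0.43 without APOE2 replicate 5. Without any one of APOE3 replicates 1 to 4 it was 0.22 to 0.33.

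Tagln2 (ENSMUSG00000026547, chr1:172500047-172507380), the transgelin with the widest use outside muscle, had more reads than its paralog Tagln in every library, as counts not divided by length. APOE2 libraries ran from 34.8 to 110 normalised counts with a median of 49.2. APOE3 replicates 1 to 5 had 102, 107, 204, 502 and 248. The groups met at their edges: 7 of 8 APOE2 libraries lay below the lowest APOE3 library, and APOE2 replicate 7, at 110, lay above APOE3 replicates 1 and 2. The ratio of the APOE3 to the APOE2 mean was 3.98 and the log2 fold change −1.83. Tagln2, like Acta2, was selected for this difference. Its APOE3 values spread more than those of Acta2, with a coefficient of variation of 70.1% against 51.3%. Replicate 4 held 43.1% of the APOE3 sum, and without it the APOE3 mean was 165 normalised counts and the log2 fold change −1.49.

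Tpm1 (ENSMUSG00000032366, chr9:67022590-67049406), which encodes tropomyosin 1, was abundant in all libraries and varied little. APOE2 libraries ran from 3594 to 5286 normalised counts with a median of 4301. APOE3 replicates 1 to 5 had 3282, 4678, 4300, 3133 and 4625. The means were 4345 ± 629 (SD, n = 8) and 4004 ± 743 (SD, n = 5). The limma log2 fold change was 0.13 ± 0.12 (SE), with an adjusted p of 0.689, and its 95% interval, from −0.13 to 0.38, is narrower than those of Myl9 and Des. Without APOE3 replicate 4 the value was 0.043, without APOE3 replicate 1 it was 0.060 and without APOE2 replicate 8 it was 0.084. Counts per gene do not separate the muscle isoforms of Tpm1 from the others.

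Tpm2 (ENSMUSG00000028464, chr4:43514711-43523765), the tropomyosin enriched in muscle, had 0 reads in 4 of 8 APOE2 libraries and a highest value of 10.6 normalised counts there, in replicate 5. APOE3 replicates 1 to 5 had 2.11, 7.91, 10.4, 7.53 and 0. The groups overlapped. The unfiltered limma fit gave a log2 fold change of −1.26 with an interval from −2.87 to 0.34 and an adjusted p of 0.636.

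**Figure D2:**
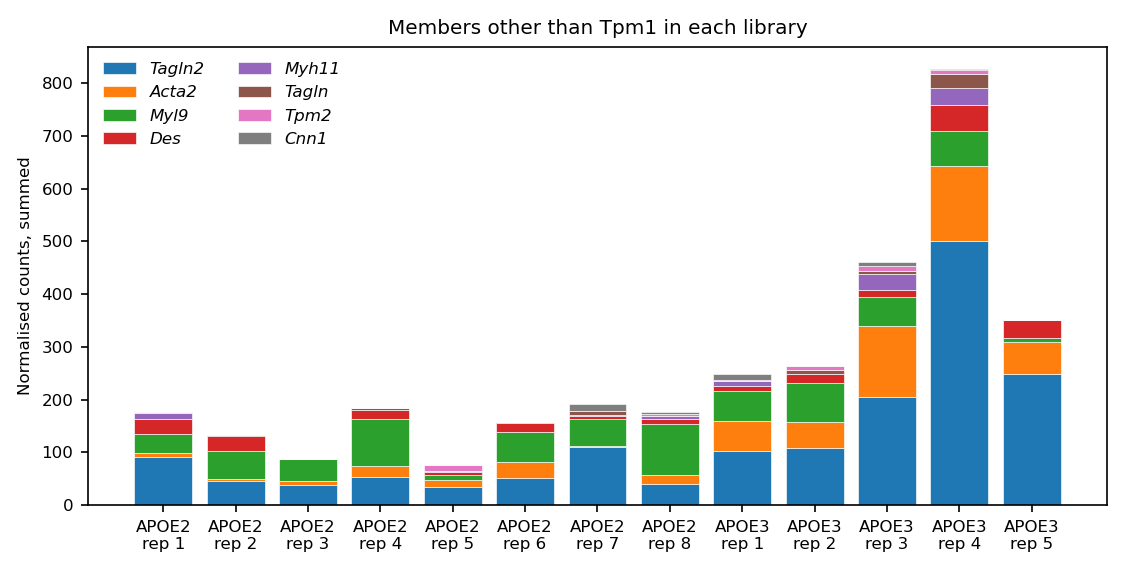
Stacked bars give the normalised counts of the members other than Tpm1 in each library, 1 colour per gene, from APOE2 replicate 1 to APOE3 replicate 5. The sums run from 76.0 to 191 in APOE2 and from 249 to 827 in APOE3, and Acta2 and Tagln2, the genes chosen for their difference, make up most of the gap.

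Read by library, the members did not vary as 1 block. APOE3 replicate 4 had the highest value of 5 members (Acta2, Tagln, Tagln2, Myh11 and Des) and the lowest of Tpm1. APOE3 replicate 5 had reads of only 5 of the 9 genes, with 0 for Tagln, Myh11, Cnn1 and Tpm2, although its Acta2 value of 61.3 normalised counts was above every APOE2 library. The summed value of Tagln, Myh11, Cnn1, Des and Tpm2 was 34.7 normalised counts in that library, beside 40.2 in APOE2 replicate 1. After each group mean was subtracted, the correlation of log2 values over the 13 libraries had a median of 0.13 across the 36 pairs of members, from −0.51 for Myh11 and Tpm1 to 0.55 for Myh11 and Tpm2. For Acta2 it was 0.31 with Myh11, −0.12 with Tagln and −0.12 with Tagln2. These values are descriptive, and the pairs with Tagln, Myh11, Cnn1 or Tpm2 rest on libraries with 0 reads.

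The remaining genes of smooth muscle contraction were read from a list of 30, of which 28 were in the table and 16 were tested. limma called 0 of the 16, while 2 were under 0.05 before adjustment. edgeR and DESeq2 also called 0. The median log2 fold change of the 16 was −0.033, beside 0.00037 over all genes, and 9 of the 16 were below 0. Among the smallest p-values were those of Hspb6, a small heat shock protein of muscle (log2 fold change −1.01, adjusted p = 0.215), and Nexn, an actin-binding protein (0.27, adjusted p = 0.516). Hspb6 had 14.7 to 64.5 normalised counts in APOE2 and 47.9 to 106 in APOE3.

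Mylk, which encodes the kinase that phosphorylates the myosin light chain, was named after its values were seen. The APOE2 mean was 3644 ± 294 normalised counts (SD, n = 8). The APOE3 mean was 3904 ± 1699 (SD, n = 5), and replicate 2 had 6855. Its log2 fold change was −0.014 (limma adjusted p = 0.980). Levels differed widely among the other genes of this list. Csrp1 had means of 1853 normalised counts in APOE2 and 2014 in APOE3, and Cald1 had 574 and 575. Lmod1, an actin nucleator of smooth muscle, had 0 reads in 5 of 8 APOE2 and 2 of 5 APOE3 libraries. All of these were also named after their values were seen.

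Non-muscle counterparts of the members, such as Cnn2, Cnn3, Tpm3, Tpm4, the myosin chains Myl6, Myl12a and Myh9, and the cytoplasmic actins, form the cytoskeleton of most cells. Of 28 listed genes 25 were tested, and limma called 0, with 5 at an unadjusted p-value under 0.05. The median log2 fold change was −0.036, and 15 of the 25 were below 0. Myh9, the non-muscle myosin heavy chain, had a mean of 959 ± 165 normalised counts in the 8 APOE2 libraries and 1312 ± 203 in the 5 APOE3 libraries (SD; log2 fold change −0.46, adjusted p = 0.107). Actb, the cytoplasmic beta-actin, had 41232 ± 7327 and 58140 ± 11477 (SD; log2 fold change −0.49, adjusted p = 0.117). Myl6, a light chain shared by smooth and non-muscle myosin, went the other way (log2 fold change 0.42, adjusted p = 0.123). DESeq2 on recovered reads called Myh9 (adjusted p = 0.0448) and Actb (adjusted p = 0.0147), and edgeR called 0 genes of this list. In the same fits, of 12403 genes each, DESeq2 called 311 genes and edgeR 138, beside 98 by limma.

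Genes that control the smooth muscle programme, SRF and its cofactors and the TGF-beta and Notch signals, gave 20 tested genes of 24. limma called 0, with 4 at an unadjusted p-value under 0.05, and edgeR and DESeq2 called 0. The median log2 fold change was −0.082, and 12 of the 20 were below 0. Klf4, a repressor of smooth muscle genes, had a mean of 154 ± 57.4 normalised counts in the 8 APOE2 libraries and 275 ± 75.5 in the 5 APOE3 libraries (SD; log2 fold change −0.89, adjusted p = 0.105). Jag1, a Notch ligand, had 43.7 ± 26.2 and 101 ± 31.5 (SD; log2 fold change −1.39, adjusted p = 0.123). Fhl1, a LIM protein of muscle, had 9.71 ± 12.9 and 48.0 ± 49.4 (SD; log2 fold change −2.70, adjusted p = 0.183), with 132 in APOE3 replicate 4. Srf itself, named after its values were seen, had 80.0 ± 26.7 and 62.9 ± 45.4 (SD; adjusted p = 0.468). Myocd, the cofactor myocardin, also named after its values were seen, had 0 reads in all 8 APOE2 libraries and in 4 of 5 APOE3 libraries.

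**Figure D3:**
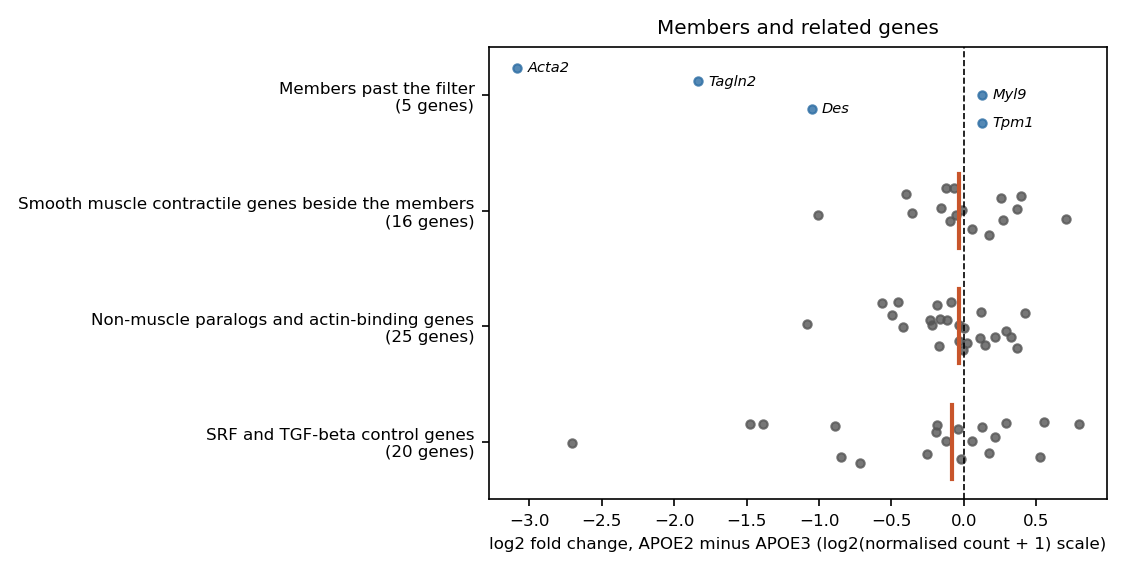
Points give the log2 fold change of APOE2 against APOE3 for the 5 members past the minimum mean and for the tested genes of 3 functional lists, the orange bars their medians and the dashed line the median of all genes tested. Acta2 and Tagln2 were selected for their difference and lie far to the left. The list medians stay between −0.082 and −0.033, but single listed genes reach from −2.70 (Fhl1) to 0.79 (Srf).

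Markers of cells that could accompany the sorted tumour cells were summed per library. Over all genes tested, limma called 0.379% lower in APOE2, and 14.2% were under 0.05 before adjustment. Lower calls over all genes numbered 47, but 0 without the trend and 4 without APOE3 replicate 3. The marker calls given here therefore depend on the setting. Pericyte markers, led by Cspg4 and Pdgfrb, summed to 40.1 to 135 normalised counts in APOE2 and 44.1 to 104 in APOE3, with 3 of 10 genes tested and 0 called (median log2 fold change −0.12, 2 of 3 below 0). Rgs5, a defining pericyte gene named after its values were seen, had 0 reads in 6 APOE2 and all 5 APOE3 libraries. Fibroblast markers (7 of 13 tested, 0 called, 3 under 0.05 before adjustment; led by Fbln1 and Dcn) summed to 580 to 907 and 558 to 2451, highest in APOE3 replicate 4. All 7 tested fibroblast markers had a log2 fold change below 0, with a median of −1.12, beside 49.9% below 0 over all genes tested. Fbln1, the most abundant of them, had the value nearest 0, at −0.032. Heart muscle markers of the pulmonary veins (8 of 10 tested, 1 called lower, 5 under 0.05 before adjustment, led by Ttn and Tnnt2) summed to 60.7 to 430 and 325 to 887. Of these, 8 of 8 were below 0, with a median of −1.84. Endothelial markers (13 of 14 tested, 1 called lower, 9 under 0.05 before adjustment, led by Eng and Egfl7) summed to 791 to 1180 and 1030 to 2200. Of these, 13 of 13 were below 0, with a median of −1.45. Alveolar and airway epithelial markers (14 of 16 tested, 6 called lower, 10 under 0.05 before adjustment, led by Sftpc and Sftpa1) summed to 849 to 4211 and 3619 to 21379.5. Of these, 12 of 14 were below 0, with a median of −1.85. The 6 called were alveolar genes: Sftpa1, Sftpb, Sftpc, Sftpd, Napsa and Slc34a2. Above 0 were the airway genes Scgb3a2 (1.99, with 0 reads in 5 APOE2 and 5 APOE3 libraries) and Foxj1 (1.44). Except for Sftpc and Sftpa1, these were named after their values were seen. Leukocyte markers (4 of 10 tested, 2 called lower, 2 under 0.05 before adjustment, led by Lyz2 and S100a8) summed to 405 to 2315 and 1842 to 12172 in these CD45-negative sorted cells. Of these, 4 of 4 were below 0, with a median of −1.21. Lyz2, which alveolar type II cells also express, made up 11891 of the 12172 in APOE3 replicate 4, where S100a8 had 83.8. In that library Cd74, the other leukocyte marker called lower, had 138, Csf1r 29.2 and Cd68 10.4, each named after its values were seen. The APOE2 and APOE3 means were 32.2 and 116 normalised counts for Cd74, 1.68 and 16.4 for Csf1r, and 29.1 and 42.3 for Cd68. Ptprc, which encodes CD45 and was also named after its values were seen, averaged 6.90 normalised counts in APOE2 and 14.0 in APOE3. Mesothelial markers (2 of 4 tested, 0 called; led by Upk3b and Msln) summed to 3.68 to 81.3 and 34.8 to 221, with both below 0 and a median of −0.99.

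Skeletal muscle markers (Mylpf and Ckm leading; 2 of the 3 in the table tested, 0 called) summed to 24.3 to 90.3 normalised counts in APOE2 and 30.1 to 58.8 in APOE3. Platelet markers (Ppbp and Itga2b leading; 1 of 6 tested, 0 called) summed to 10.1 to 37.0 and 5.78 to 70.8, and erythroid markers (Hbb-bs and Hba-a1 leading; 2 of the 4 in the table tested, 0 called) to 36.2 to 143 and 23.2 to 193. APOE3 replicate 4, where 5 members peaked, had the highest sum of the fibroblast, endothelial, epithelial, heart muscle, mesothelial and leukocyte lists. The part of these other cell types in the values of Acta2 and Tagln2 was not tested.

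**Figure D4:**
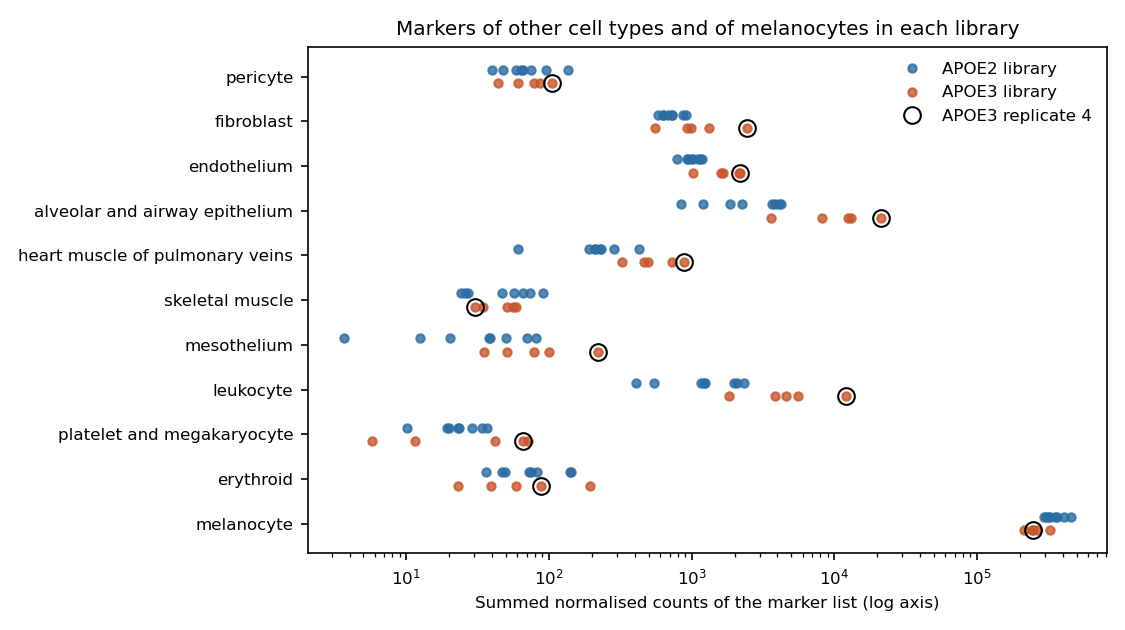
Each row plots the summed normalised counts of a marker list in every library on a log axis, blue for APOE2 and orange for APOE3, with a ring around APOE3 replicate 4. That library has the highest sum in 6 of the 11 lists, and the pericyte, skeletal muscle, platelet and erythroid lists overlap widely between the groups.

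The choice of Acta2 and Tagln2 fixed their direction, so that its recurrence is no sign of stability. Over 9 other settings the log2 fold change of Acta2 ran from −3.20 to −2.54, and with each library left out in turn from −3.33 to −2.75. For Tagln2 the ranges were −1.99 to −1.76 over 10 settings and −2.06 to −1.49. Among the genes below the minimum mean, the leave-one-out range was −1.73 to −0.53 for Tagln and −1.83 to −0.95 for Tpm2.

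**Figure D5:**
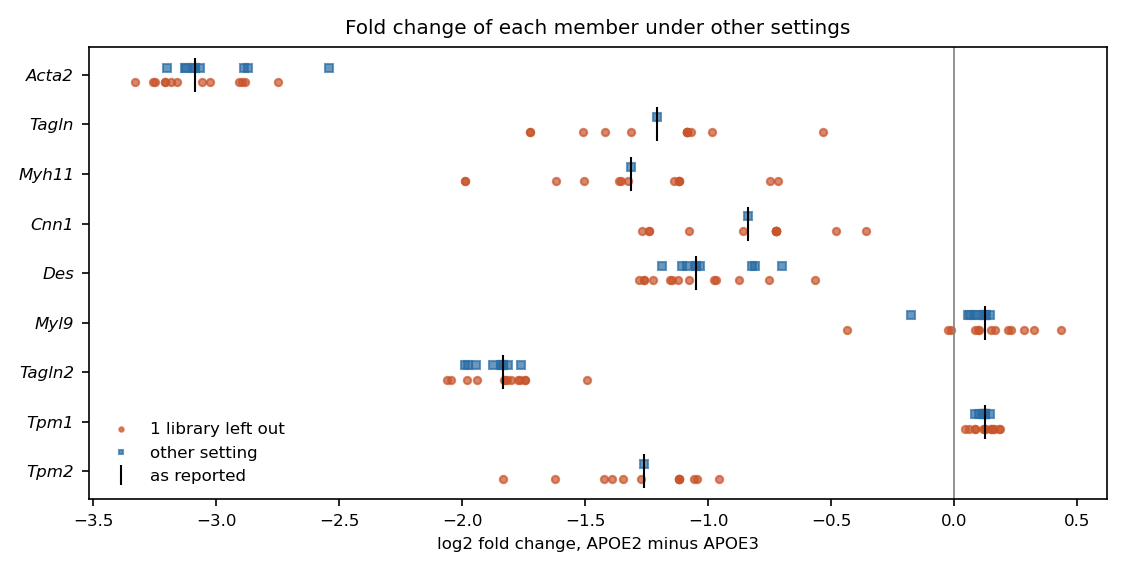
For each gene the black bar marks the log2 fold change as reported, orange points the 13 fits that leave out 1 library, and blue squares the other settings (1 for genes below the minimum mean). Acta2 and Tagln2 stay well below 0, a direction fixed by their selection. Myl9 crosses 0 and Tpm1 stays between 0.043 and 0.19.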

How the data were processed

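Per the labels' protocols, libraries of sorted-cell RNA came from a QuantSeq 3′ kit (FWD), so reads lie near transcript ends. The submitters' processing notes name STAR 2.6.0, featureCounts, DESeq2 1.28.1 and mm10; their roles, the annotation and the use of strand are not given in the sources used here. The values the authors deposited are a signal: normalised counts of each gene in all libraries, none below 0. In each library 100% of nonzero values were whole multiples of 1 step (tolerance 0.01), so reads were recovered for the read-based alternatives. GENCODE M21 (GRCm38) paired 22649 of 22656 identifiers with symbols and gave gene coordinates.

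APOE2 was compared with APOE3 by limma 3.58.1 (R 4.3.3) with an intensity trend on log2(value + 1), for genes with a mean of at least 10. The test was two-sided, with Benjamini-Hochberg adjustment over all genes tested. Fold changes of low genes depend on the scale. The log2 fold change of Des was −1.05 by limma, −1.19 with a pseudocount of 0.5, −0.70 with 5, −0.81 by edgeR and −0.82 by DESeq2. For Acta2 limma gave −3.09, edgeR −2.87 and DESeq2 −2.89. p-values measure the spread between libraries, 8 and 5 mice by the series' design text. The limma step was tested on simulated data. Alternatives were pseudocounts of 0.5 and 5, no minimum mean or 50, TMM scaling, equal totals, edgeR 4.0.16, DESeq2 1.42.0, limma without the trend, a replicate block and each library left out. Members and lists were chosen with earlier results of these data known. Text names the 9 members, the 3 listed genes per functional list with the smallest p-values (or all called; 1 of them is not reported here), the 2 marker genes per list with the highest mean, and the 5 genes most correlated with each of 4 members; others are marked as named after their values were seen.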

Additional observations from a re-analysis of the deposited data

Results flagged for a closer look

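For each of the 9 genes and each group, the highest and lowest log2 values were checked with Dixon's ratio, the distance to the next library divided by the span of the group. In 18 screens 3 values stood apart. About 1 in 20 screens is flagged by chance where log2 values are normally spread, which low counts need not be. Myl9 had 9.50 normalised counts in APOE2 replicate 5, with the nearest library at 37.5. Myl9 also stood apart in APOE3 replicate 5, at 8.10 with the nearest library at 55.2. Whether libraries with the same number share more than that number is not given by the labels. Des had 0 normalised counts in APOE2 replicate 3, with the nearest library at 6.04. A count of 0 in that library allows up to 2.76 normalised counts, so this flag rests on a value at the floor.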

How the results depend on the processing

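Low reads limit these genes: 4 of the 9 were below the minimum mean, and a count of 0 allowed up to 2.04 to 3.47 normalised counts. Over all genes, 98 were called (51 higher, 47 lower in APOE2). The count was 9 (5 and 4) without a minimum mean, 311 (153 and 158) with DESeq2, 43 (17 and 26) with the replicate block, and 0 (0 and 0) in limma without the trend, where 1599 had an unadjusted p-value under 0.05. Lower genes numbered 73 with a pseudocount of 5 and 77 with edgeR. Leaving out 1 library gave 9 to 228 genes, 5 to 131 higher and 4 to 97 lower, with the lowest counts without APOE3 replicate 3 and the highest without APOE3 replicate 1. The members listed by function and the smooth muscle and control lists gave 0 calls in every setting run. The non-muscle list did too, except with DESeq2, which called 2. limma called 0.79% of all genes tested, and lists this short can give 0 calls at that share. Without the trend, where 0 genes were called, the 0 was fixed in advance. These 0 counts are therefore no sign of stability. Myl9 changed sign with the replicate block (−0.17), without APOE2 replicate 4 (−0.011), without APOE2 replicate 8 (−0.024) and without APOE3 replicate 5 (−0.44), and leaving out 1 library gave −0.44 to 0.43. The block changed no call among the members or lists. Deviations of same-numbered libraries correlated by −0.063 to 0.014, and no library correlated best with its own number in the other group. These correlations cannot tell whether same-numbered libraries share a batch, which the labels do not give. The cause of these changes was not tested.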

Other observations

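The genes whose log2 values followed single members most closely over the 13 libraries, after each group mean was subtracted, were drawn from 12403 genes, so high correlations are to be found by selection alone and no p-value is given. For Acta2 they were Ccdc61 (Pearson r = 0.89), Ranbp10, Cyp4b1, Ripor1 and Gas2 (0.81). For Tagln2 they were H2-Aa (0.92), a class II antigen-presenting gene with 73.5 normalised counts in APOE2 and 217 in APOE3, followed by Atp6v1c1, Chordc1, Hdac4 and Sdhaf2 (0.86). For Tagln they were Slc6a17 (0.90), Gm38391, Cdc42ep2, Sdc1 and Il6st (0.79), and for Myh11 they were 4931414P19Rik (0.90), Tle4, mt-Cytb, Trpm7 and Ripor2 (0.87).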
